A study of Drosophila melanogaster with 2 samples.

Results

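The cytoplasmic ribosomal protein genes of Drosophila melanogaster were taken as the protein-coding genes of the Ensembl annotation whose symbol starts with RpL or RpS, together with sta, which encodes a small subunit protein under an older name. There were 93 such genes among 13968 protein-coding genes, 54 of the large subunit and 39 of the small subunit. The rule used gene names only and no measured value. The data were chromatin immunoprecipitation sequencing (ChIP-seq) peak lists for Spps, a protein recovered through its GFP tag by an antibody to GFP. The chromatin came from 0 to 12 h embryos, used whole. The line stably expresses Spps with GFP at its C-terminal end, and the promoter that drives the fusion is not given in the sources used here. The labels give 2 biological replicates of this 1 group, called against the same 1 control, so the design held no contrast, and no test was run. Whole embryos mix all cell types, so a peak does not show in which cells Spps was bound. Each replicate list and the list called on both replicates together (pooled) held 30000 peaks, and the list of peaks reproducible between replicates (IDR, irreproducible discovery rate) held 3260. All IDR peaks carry the signal they have in the pooled list, in which they are the highest. No read counts are in the lists, so depth is unknown, and the exact (Clopper-Pearson) 95% intervals given in brackets cover counting over genes only.

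Ribosomal proteins assemble with ribosomal RNA into the large subunit, which joins amino acids, and the small subunit, which decodes the messenger RNA. Flies that carry a single working copy of many of these genes show the Minute phenotype of slow growth and thin bristles. Promoters of these genes in Drosophila are known for starting transcription at a polypyrimidine (TCT) initiator and for binding the factors M1BP and Dref, the second of which recognises the DNA replication-related element (DRE). Spps belongs to the Sp/KLF family of zinc finger proteins and acts at Polycomb response elements, elements through which Polycomb proteins silence developmental genes.

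The promoter sequences of 8 members are shown from 120 bases before a transcription start site (TSS) to 20 after it, on the gene's strand, 5′ to 3′, taken from the RefSeq genome (assembly release 6, the same coordinates as dm6). The TSS is base 121. Capitals mark the DRE, TATCGATA on either strand, and the TCT initiator, CTTTT with C or T on each side, on the gene's strand and starting within 10 bp of the TSS. Matches of the same letters further away are left in lower case. A TCT initiator here is thus a string match near the annotated TSS and need not span it. The first 4 genes are among the 12 with the highest IDR signal, and they show that these promoters differ in the elements they hold.
RpL23A (chr3L:1668634-1668774, minus strand): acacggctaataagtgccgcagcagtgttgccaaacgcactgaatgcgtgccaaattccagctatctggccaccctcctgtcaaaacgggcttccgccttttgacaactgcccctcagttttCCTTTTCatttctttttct
RpL14 (chr3L:8600886-8601026, plus strand): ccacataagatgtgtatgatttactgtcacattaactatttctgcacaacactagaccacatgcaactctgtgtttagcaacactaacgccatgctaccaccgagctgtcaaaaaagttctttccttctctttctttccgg
RpL34a (chr3R:26059247-26059387, minus strand): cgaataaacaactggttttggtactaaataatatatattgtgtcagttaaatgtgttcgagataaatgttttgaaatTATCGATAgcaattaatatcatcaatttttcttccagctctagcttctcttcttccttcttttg
RpS25 (chr3R:11216267-11216407, minus strand): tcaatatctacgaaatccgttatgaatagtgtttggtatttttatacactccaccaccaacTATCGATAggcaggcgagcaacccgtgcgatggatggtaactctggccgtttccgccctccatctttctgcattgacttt
RpL23A has a TCT initiator 2 bp after the TSS and no DRE in this window. RpL34a and RpS25 have a DRE, which starts 43 bp before the TSS in RpL34a and 59 bp before it in RpS25. RpL14 has neither in capitals, although its start lies in a run of pyrimidines. The other 4 sequences belong to 2 paralogue pairs in which the copy named first had an IDR summit and the other did not.
RpS14a (chrX:7933622-7933762, plus strand): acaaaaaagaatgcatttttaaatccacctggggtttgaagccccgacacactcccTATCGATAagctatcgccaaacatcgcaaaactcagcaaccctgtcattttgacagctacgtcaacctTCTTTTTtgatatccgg
RpS14b (chrX:7934778-7934918, plus strand): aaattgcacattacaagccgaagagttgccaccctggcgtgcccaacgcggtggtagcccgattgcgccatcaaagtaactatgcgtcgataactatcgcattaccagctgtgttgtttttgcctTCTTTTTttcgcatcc
RpS5a (chrX:17148244-17148384, minus strand): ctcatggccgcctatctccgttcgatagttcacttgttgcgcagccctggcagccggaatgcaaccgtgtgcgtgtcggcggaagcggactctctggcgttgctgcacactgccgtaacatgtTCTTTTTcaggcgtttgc
RpS5b (chr3R:14901543-14901683, minus strand): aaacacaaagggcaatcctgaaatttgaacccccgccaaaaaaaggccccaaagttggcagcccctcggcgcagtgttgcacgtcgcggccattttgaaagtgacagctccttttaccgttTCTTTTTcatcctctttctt
All 4 hold a TCT initiator, which starts 4 bp after the TSS in RpS14a, 5 bp in RpS14b, 3 bp in RpS5a and 1 bp in RpS5b. A DRE stands in RpS14a, 64 bp before the TSS, and not in this window of RpS14b, RpS5a or RpS5b.

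Most ribosomal protein genes had a reproducible Spps-GFP peak at their promoter. An IDR summit, the base of highest signal in a peak, lay within 500 bp of a TSS in 58 of the 93 genes (62.4%, 51.7 to 72.2), against 1839 of 13875 other protein-coding genes (13.3%, 12.7 to 13.8) and 13.6% of all protein-coding genes. Genes with such a summit are called bound here. The 58 bound genes had 58 different peaks, so no peak was counted for more than 1 of them. The 1839 other bound genes had 1290 different peaks, some of them also peaks of ribosomal protein genes. Values and intervals for those other genes therefore count some peaks more than once. Of the remaining 35 genes, 29 had a summit in the pooled list of 30000 peaks and 6 did not. In the full pooled list 87 of the 93 genes had a promoter summit (93.5%, 86.5 to 97.6), against 55% of all protein-coding genes. Because the long lists stop at 30000 peaks, a gene with no peak in them is not shown to be free of Spps.

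Each replicate on its own gave a similar picture. Among the 3260 highest-signal peaks of each replicate, 59 ribosomal protein genes had a promoter summit in replicate 1 (63.4%, 52.8 to 73.2) and 50 in replicate 2 (53.8%, 43.1 to 64.2), against 14.1% of all protein-coding genes in replicate 1 and 12.9% in replicate 2. There were 47 genes in both of these shortened lists and 31 in neither. No share over all protein-coding genes is given for these counts, so they describe the members alone. The full lists held 85 of the 93 genes in each replicate (91.4%, 83.8 to 96.2), beside backgrounds of 54.9% in replicate 1 and 51.7% in replicate 2. Summits of both full lists lay within 200 bp of each other at 79 genes (84.9%, 76.0 to 91.5), against a background of 39.5%.

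**Figure D1:**
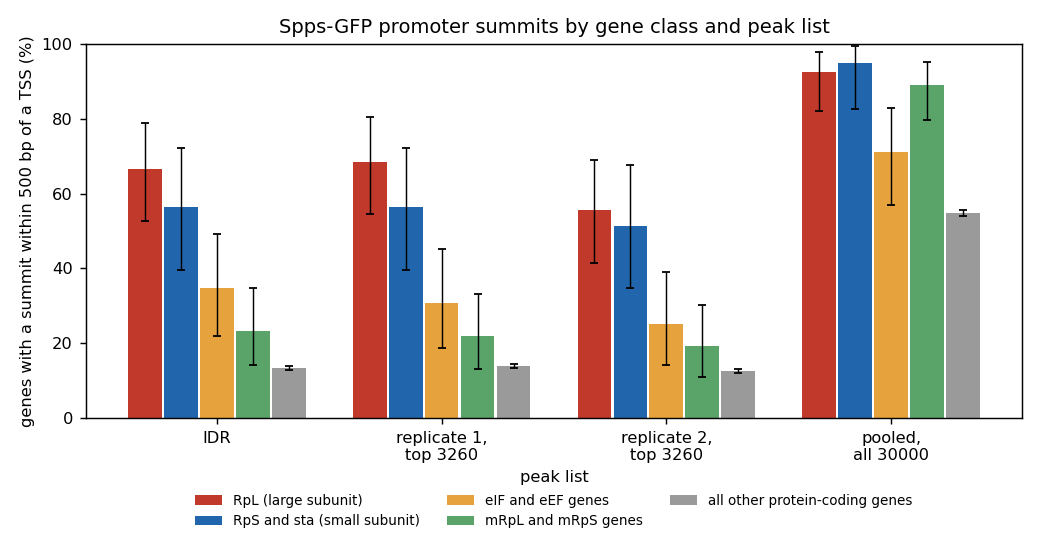
Share of genes (%, vertical axis) with a summit within 500 bp of a TSS in 4 peak lists (horizontal axis), for RpL genes, RpS genes with sta, eIF and eEF genes, mRpL and mRpS genes and all other protein-coding genes. Bars are shares and lines exact 95% intervals. In the IDR list the RpL genes reached 66.7% and the small subunit genes 56.4%, against 13.3% of other genes, while in the full pooled list the mRpL and mRpS genes reached 89.0%.

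All 58 IDR summits at ribosomal protein genes had a counterpart within 200 bp in both full replicate lists, and 56 had one within 100 bp in both. Of other bound genes, 1830 of 1839 had a counterpart within 200 bp in both, so the member count is close to the general one. The peaks of the 58 ribosomal protein genes had a median rank of 1317 in replicate 1 and 1668 in replicate 2. Rank 1 is the highest signal of a list. The peak ranked higher in replicate 1 at 40 of the 58 genes (69.0%, 55.5 to 80.5), against 1149 of 1830 other bound genes (62.8%, 60.5 to 65.0). Both replicates feed the pooled list and share a control, so part of this likeness follows from how the lists were made.

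**Figure D2:**
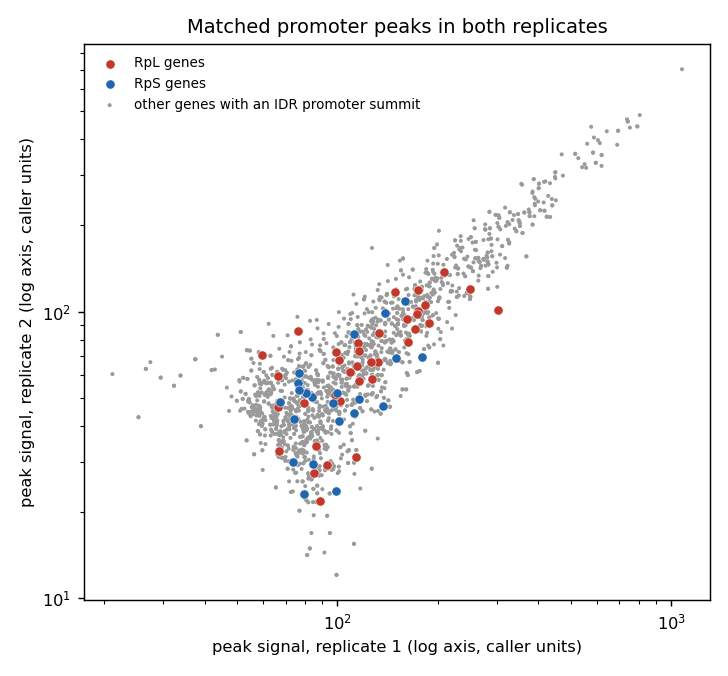
Peak signal in replicate 1 (horizontal log axis) and replicate 2 (vertical log axis), in units of the authors' caller, for the matched peaks of bound RpL genes, bound RpS genes and other bound genes. The ribosomal protein genes lie within the cloud of other genes, with RpL34b at 250 in replicate 1 and 120 in replicate 2, and none reaches the far upper right.

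Ribosomal protein promoters were bound often but not with especially high signal. The 58 peaks had IDR signals from 105 to 395, with a median of 161, against a median of 158 and a highest value of 1769 at other bound genes. Among the 1388 IDR peaks at promoters of protein-coding genes, the median ribosomal protein peak stood at percentile 51.6. Of the 58 peaks, 17 were among the 1000 highest-signal of the 3260 IDR peaks, close to the share of all IDR peaks.

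Large and small subunit genes overlapped in both frequency and signal. A promoter IDR summit was found at 36 of 54 large subunit genes (66.7%, 52.5 to 78.9) and at 22 of 39 small subunit genes (56.4%, 39.6 to 72.2), and these intervals overlap. Peaks at large subunit genes had a median signal of 181 (percentile 58.3), and those at small subunit genes 140 (percentile 40.8). The ranges ran from 105 to 395 for the large subunit and from 106 to 278 for the small subunit. In replicate 1 the median rank was 1218.5 for large and 1626 for small subunit genes, and in replicate 2 it was 1348.5 for large and 2270.5 for small subunit genes. The large subunit thus had the higher median in both replicates, without a separation of the ranges. Of the 12 highest peaks, 10 were at large subunit genes, and the exceptions were RpS27 and RpS25.

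The highest peaks described here, at RpL34b, RpL7 and RpLP0, each lay also in the window of a neighbour on the other strand. RpL34b (FBgn0037686), 1 of a pair of genes for the large subunit protein L34, had a peak at 3R 9401307 to 9401516 (dm6) with an IDR signal of 368. Its signal was 250 in replicate 1 (rank 248) and 120 in replicate 2 (rank 459). The summit lay 118 bp upstream of RpL34b and 151 bp upstream of CG8132. RpL7 (FBgn0005593) had a peak at 2L 10200938 to 10201186 with an IDR signal of 347, and it was close in rank in both replicates, 356 in replicate 1 and 338 in replicate 2. That summit was in the 5′ UTR of a RpL7 transcript, 12 bp upstream of the nearest RpL7 TSS, and 114 bp upstream of Ripalpha, a gene for a protein that binds replication protein A.

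RpL23A, whose promoter is shown above, had the highest peak that lay in the window of no other gene. RpL23A (FBgn0026372) encodes a protein at the exit of the tunnel through which the new peptide leaves. Its peak at 3L 1668514 to 1668889 had an IDR signal of 287, with 183 in replicate 1 (rank 507) and 106 in replicate 2 (rank 625). The summit stood 48 bp upstream of the TSS in the IDR list and in replicate 2, and 105 bp upstream in replicate 1. RpL30 and RpL24, both of the large subunit, also had peaks to themselves. RpL30 (2L 19009098 to 19009473) had an IDR signal of 265, with 148 in replicate 1 and 118 in replicate 2, and its summit lay in its 5′ UTR, 20 bp after the TSS. RpL24 (2L 13394920 to 13395295) had an IDR signal of 258, with 173 in replicate 1 and 97.9 in replicate 2, and its summit lay 16 bp before a TSS.

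The other peaks described among the 12 highest each lay between a ribosomal protein gene and a gene on the other strand. RpL19 (2R 24969522 to 24969675) had an IDR signal of 279, with 188 in replicate 1 (rank 470) and 91.1 in replicate 2 (rank 845), and its summit fell almost midway, 63 bp from RpL19 and 68 bp from CG3776. RpS27 (3R 25247399 to 25247638), the highest of the small subunit, had an IDR signal of 278, with 160 in replicate 1 (rank 669) and 109 in replicate 2 (rank 580). Its neighbour Nup37 encodes a nuclear pore protein, and the summit was 21 bp upstream of RpS27 and 123 bp upstream of Nup37. RpL14 (3L 8600907 to 8601052) had an IDR signal of 275, with 174 in replicate 1 and 101 in replicate 2. Its summit fell on the TSS within a few bases in all lists, 1 bp upstream in the IDR list, at 0 bp in replicate 1 and 6 bp upstream in replicate 2. The gene opposite is Nelf-E, for a subunit of the complex that holds paused RNA polymerase, 126 bp away. RpL34a (3R 26059211 to 26059586) had an IDR signal of 253, with 161 in replicate 1 (rank 651) and 94.0 in replicate 2 (rank 785). Its summit lay 132 bp upstream of RpL34a and 97 bp upstream of Trmt61, a tRNA methyltransferase subunit gene, and so nearer to the neighbour. RpS25 (3R 11216167 to 11216542), whose protein is known for a role in initiation at internal ribosome entry sites, had an IDR signal of 249, with 180 in replicate 1 (rank 523) and 69.3 in replicate 2 (rank 1345). The summit lay 68 bp upstream of RpS25 and 180 bp upstream of CG4820, near the DRE printed above.

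The stalk genes ranged from the top of the set to its middle. RpLP0, RpLP1 and RpLP2 encode the stalk of the large subunit, the arm that recruits elongation factors. RpLP0 (FBgn0000100, 3L 22075888 to 22076263) had an IDR signal of 301, with 175 in replicate 1 (rank 558) and 119 in replicate 2 (rank 464). RpLP1 (2L 419655 to 420030) had an IDR signal of 166, with 116 in replicate 1 (rank 1212) and 57.2 in replicate 2 (rank 1831). RpLP2 (2R 16585770 to 16586145) had an IDR signal of 161, with 76.4 in replicate 1 (rank 2411) and 85.7 in replicate 2 (rank 935). The order of RpLP1 and RpLP2 turned between the replicates, while RpLP0 was highest in each. The RpLP0 summit stood 16 bp before a TSS, inside a 5′ UTR, and those of RpLP1 and RpLP2 were further upstream, at 109 bp and 171 bp.

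**Figure D3:**
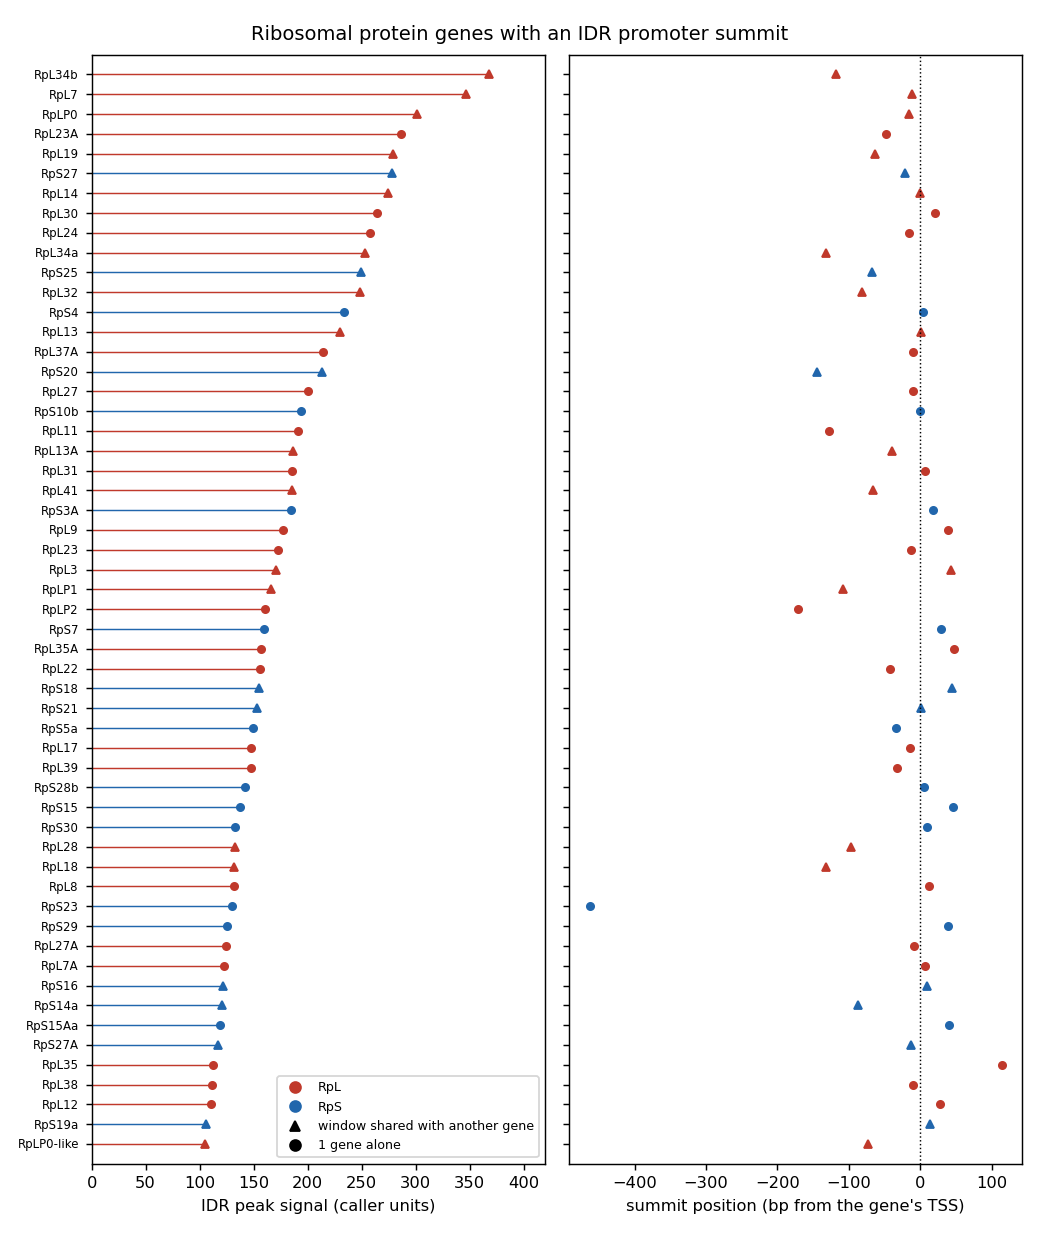
IDR peak signal in caller units (left) and summit position in bp from the gene's nearest TSS, minus being upstream (right), for 55 of the 58 bound ribosomal protein genes in order of signal. Triangles mark summits that also lie within 500 bp of another protein-coding gene's TSS, and 9 of the 12 highest shown are triangles. RpS23 stands apart at -463 bp.

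The lowest bound genes lay close to the signal at which the IDR list ends, 101. RpL12 had an IDR signal of 110, with 66.2 in replicate 1 (rank 3039) and 46.7 in replicate 2 (rank 2576). RpS19a had an IDR signal of 106, with 73.6 in replicate 1 (rank 2569) and 29.9 in replicate 2 (rank 5526), and RpLP0-like had 105, with 66.9 in replicate 1 (rank 2967) and 32.5 in replicate 2 (rank 4784). Except for RpL12, these peaks ranked below the first 3260 of replicate 2.

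Of the unbound genes, several fell just outside the IDR list. RpL4, which lines the exit tunnel, had a pooled peak with a signal of 97.8 at rank 3397, with 74.9 in replicate 1 (rank 2505) and 30.5 in replicate 2 (rank 5346). RpL29 had a pooled signal of 91.1 at rank 3812, with 52.1 in replicate 1 (rank 4549) and 36.0 in replicate 2 (rank 4007). RpL36, which shares its peak with Mybbp1A, had a pooled signal of 87.9 at rank 4029, with 52.5 in replicate 1 and 31.8 in replicate 2. RpS3, a protein at the entry of the messenger RNA channel, had a pooled signal of 87.3 at rank 4062, with 58.8 in replicate 1 and 28.6 in replicate 2. RpS6, the small subunit protein phosphorylated by S6 kinase, had a pooled signal of 86.7 at rank 4102, with 55.0 in replicate 1 and 36.0 in replicate 2. These 5 genes had peaks in every long list, at ranks between 2505 and 6005. The gene sta (stubarista, named for its antennal phenotype) was alike, with a pooled signal of 85.0 at rank 4228, 52.6 in replicate 1 (rank 4482) and 38.4 in replicate 2 (rank 3612). Its pooled summit lay in its 5′ UTR, in the window of inc as well.

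The 29 genes with a pooled but no IDR promoter summit went down to RpL21 at rank 29354, with a pooled signal of 24.1.

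Some genes stood well apart in the replicates, and those in this paragraph were named after their values were seen. RpL38, near the centromere, ranked 1894 in replicate 1 with a signal of 88.7 and 9850 in replicate 2 with 21.9. RpS16 ranked 1602 in replicate 1 with 98.7 and 8484 in replicate 2 with 23.7, and RpL39 ranked 1261 in replicate 1 with 113 and 5182 in replicate 2 with 31.0. All 3 were bound. In the other direction, RpS9 and RpS13, both unbound, ranked higher in replicate 2. RpS9 had rank 18831 in replicate 1 and 3139 in replicate 2, and RpS13 had rank 10534 in replicate 1 and 2557 in replicate 2.

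Only 4 members had no promoter summit in any list: RpL10Aa, RpL22-like, RpL37-2 and RpS28-like. Each is a second copy or a like gene of another member. RpL5 and RpS19b had none in the pooled list but 1 in a single replicate, RpL5 at rank 5308 of replicate 2 and RpS19b at rank 18876 of replicate 1. RpL5, RpL15 and RpL21, named after their values were seen, had their nearest IDR summits at 392281, 4388355 and 103464 bp. Of these, RpL5 and RpL15 are known to lie in the heterochromatin next to a centromere, and RpL15 reached only rank 19079 of the pooled list.

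In most paralogue pairs 1 copy was bound and the other was not. The annotation gave 14 pairs by symbol, with RpS28b in 2 of them. Both copies were bound in 2 pairs, RpL34b with RpL34a and RpLP0 with RpLP0-like. In each of them the summit of the second copy lay nearer to a neighbour, Trmt61 for RpL34a and 14-3-3zeta for RpLP0-like. When a summit counted only for the gene with the nearest TSS, neither second copy was bound. In 10 pairs 1 copy was bound, and in 2 pairs, RpL10Ab with RpL10Aa and RpL37-1 with RpL37-2, neither was. The copy named first here was put first with its results known, so the counts show how unlike the copies are and not a direction.

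The unbound copies differed in how far down the lists they stood. RpS5a had an IDR signal of 149, with 99.8 in replicate 1 (rank 1567) and 52.1 in replicate 2 (rank 2127). RpS5b, known for its expression in the ovary, had only a pooled peak at rank 28342 with a signal of 24.7, and no promoter summit in either replicate. Their printed promoters both hold the TCT initiator. RpS10b had an IDR signal of 194, with 112 in replicate 1 and 83.5 in replicate 2, and its summit fell on the TSS at 0 bp. RpS10a had a pooled peak at rank 26182, its summit in an intron of tau, and 1 in replicate 2 at rank 14800. RpL22 had an IDR signal of 156, with 98.3 in replicate 1 (rank 1608) and 51.4 in replicate 2 (rank 2174), while RpL22-like, known for its expression in the testis, was in no list. RpS19a was just inside the IDR list, as given above, and RpS19b had a single replicate 1 peak.

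RpS14a and RpS14b stand next to each other on the X chromosome, with their TSSs 1156 bp apart. RpS14a (X 7933467 to 7933842) had an IDR signal of 120, with 74.2 in replicate 1 (rank 2531) and 42.2 in replicate 2 (rank 3078). RpS14b had a pooled signal of 63.5 at rank 6643 and 62.2 in replicate 1 (rank 3364), and no promoter summit in replicate 2. The copies were thus close in replicate 1 and apart in replicate 2. These genes encode the same protein, and how reads that match both were treated is not given in the sources used here, so their split is uncertain. Read handling is likewise unknown for the other copies, and whether their reads match both genes of a pair was not tested. RpS15Aa had an IDR signal of 119 (rank 2939 in replicate 1 and 2429 in replicate 2), and RpS15Ab a pooled rank of 10668 (12191 in replicate 1 and 13570 in replicate 2). RpS28b had an IDR signal of 142 (rank 2211 in replicate 1 and 2135 in replicate 2), and RpS28a a pooled rank of 5789 (6502 in replicate 1 and 5382 in replicate 2). The RpS28a summits lay at -161 bp (pooled), -174 bp (replicate 1) and -373 bp (replicate 2), and the pooled summit was nearer to Axn.

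The genes named as like a large subunit gene were lower than that gene in every list. RpL24-like had a pooled rank of 13970, with 6689 in replicate 1 and 19647 in replicate 2, against 681, 569 and 730 for RpL24. The RpL24-like summits lay at -52 bp (pooled), -169 bp (replicate 1) and -490 bp (replicate 2), so they need not be the same site. RpL7-like had a pooled rank of 7732, with 15929 in replicate 1 and 5617 in replicate 2, against 337, 356 and 338 for RpL7. Their yeast relatives Rlp24 and Rlp7, as well as Mrt4 for RpLP0-like, act in ribosome assembly and are not parts of the finished ribosome. RpLP0-like was bound, but its summit was nearer to 14-3-3zeta, 14 bp from that gene and 73 bp from RpLP0-like. Among the pairs with no bound copy, RpL10Ab had a pooled rank of 4641, with 3014 in replicate 1 and 8927 in replicate 2. RpL37-1 had a pooled rank of 6013, with 5689 in replicate 1 and 9692 in replicate 2.

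**Figure D4:**
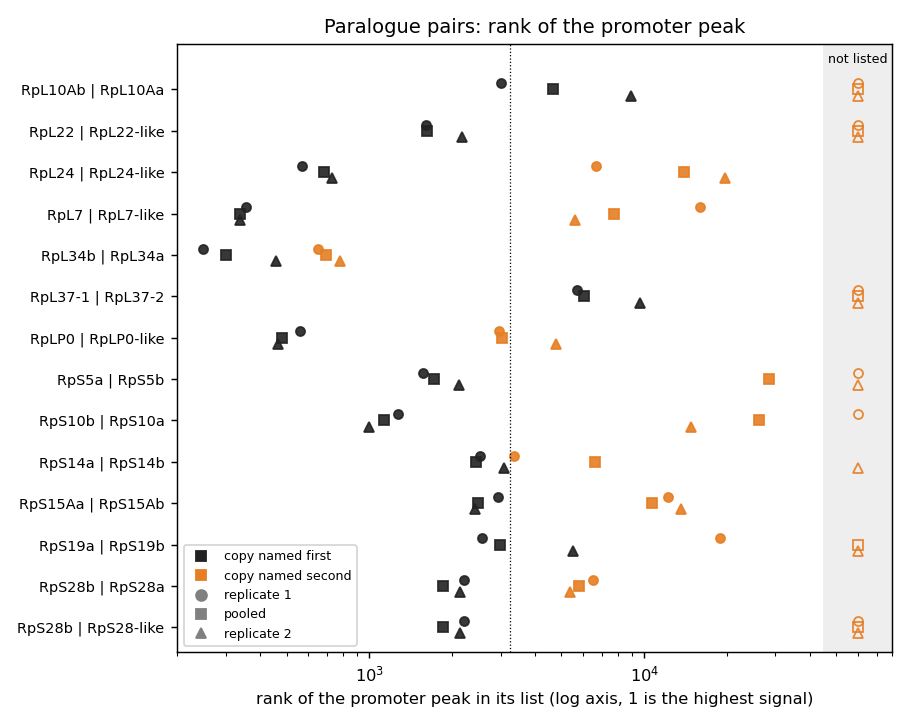
Rank of the promoter peak in each list (horizontal log axis, 1 being the highest signal) for the 14 paralogue pairs, with circles for replicate 1, squares for pooled and triangles for replicate 2. The dotted line marks rank 3260, the length of the IDR list, and open symbols in the grey band are copies with no promoter peak in that list. RpL34b and RpL34a both lie left of the line in all 3 lists.

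Summits at ribosomal protein genes sat on the TSS, while those of other bound genes sat upstream of it. The median position was -11.5 bp (middle 50% of genes from -67.75 to 11.25) at the 58 ribosomal protein genes, against -142 bp (-222.5 to -86) at 1839 other bound genes. Within 50 bp of a TSS were 39 of the 58 summits (67.2%, 53.7 to 79.0), against 180 of the 1839 (9.79%, 8.47 to 11.2). Measured to the nearest TSS of any gene, there were 40 of the 58 (69.0%, 55.5 to 80.5), against 294 of the 1839 (16%, 14.3 to 17.7), whose median position was then -107 bp. Upstream of the TSS were 34 of the 58 summits (58.6%, 44.9 to 71.4), against 1617 of the 1839 (87.9%, 86.4 to 89.4). Among large subunit genes 26 of 36 summits were upstream (72.2%, 54.8 to 85.8), and among small subunit genes 8 of 22 (36.4%, 17.2 to 59.3), intervals that overlap only between 54.8 and 59.3. The summits lay within 50 bp of the TSS at 23 of 36 large (63.9%) and 16 of 22 small subunit genes (72.7%).

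The matched summits of each replicate gave the same contrast in position with other genes. Within 50 bp of the TSS were 39 of 58 ribosomal protein summits in replicate 1 (67.2%), against 183 of 1837 other genes (9.96%). In replicate 2 there were 32 of 58 (55.2%), against 202 of 1832 (11.0%). Genes with many annotated TSSs have more places for a summit to be near, so the 27 bound ribosomal protein genes with a single TSS were also counted. Of these, 15 had the summit within 50 bp (55.6%, 35.3 to 74.5), against 63 of 1033 other single-TSS genes (6.10%, 4.72 to 7.74). The median position in that subset was -40 bp at ribosomal protein genes and -144 bp at the others.

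**Figure D5:**
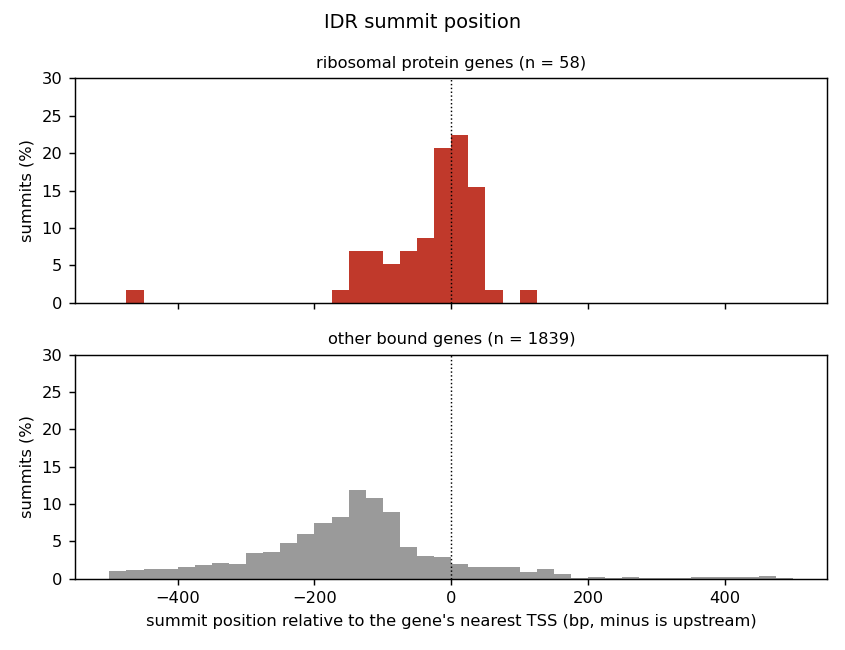
IDR summit position relative to the gene's nearest TSS (bp, minus is upstream) in bins of 25 bp, as a share of summits (%), for 58 bound ribosomal protein genes (top) and 1839 other bound genes (bottom). The first distribution centres on the TSS with a median of -11.5 bp, the second upstream with a median of -142 bp.

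In the annotation, 27 of the 58 summits were intergenic, 24 lay in the gene's own 5′ UTR and 5 in its own intron, among them RpL3, RpL35, RpL35A and RpS18. The RpS29 summit lay in its own coding exon and the RpL41 summit in an intron of NaCP60E, a sodium channel gene. The positions ran from -463 bp at RpS23 to 114 bp at RpL35. RpS23 had 2 IDR summits in its window, of which the higher was used, and the other lay 8 bp from a TSS.

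Summits that no other gene shared lay closest to the TSS. The summit lay in the window of the ribosomal protein gene alone at 33 genes, with a median signal of 149, a median position of 4 bp and 27 summits within 50 bp (81.8%, 64.5 to 93.0). At 25 genes it was shared with another protein-coding gene, with a median signal of 186, a median position of -63 bp and 12 summits within 50 bp (48%, 27.8 to 68.7). Of these 25 summits, 23 were nearest to a TSS of the ribosomal protein gene, counting RpS27A, which tied with Ip259, and 2 were nearest to the neighbour. Other bound genes had 553 shared summits nearest to their own TSS and 543 nearest to the neighbour's. A summit shared by 2 other genes was counted from each side, so a near-even split follows from the counting. It gives no baseline for the 23 above. The unshared summits of other bound genes did not centre on the TSS, with 88 of 743 within 50 bp (11.8%, 9.61 to 14.4). When a summit counted only for the gene with the nearest TSS, 56 ribosomal protein genes remained bound (60.2%, 49.5 to 70.2), against a background of 9.77%.

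Many ribosomal protein genes stand head to head with another gene. A TSS of a protein-coding gene on the other strand lay head to head within 500 bp at 37 ribosomal protein genes, of which 26 were bound (70.3%, 53.0 to 84.1), and 32 of the other 56 were (57.1%, 43.2 to 70.3). Among all other genes, 1052 of 3778 divergent genes were bound (27.8%, 26.4 to 29.3) and 787 of 10097 without such a partner (7.79%, 7.28 to 8.33). The 2 intervals for ribosomal protein genes overlap, and those for other genes do not. By the rule used, 1 summit between head-to-head genes can count for both, so the genes of a pair are not separate counts. How far this raises the share of divergent genes was not tested. Among the partners were Dref, which binds the DRE and lies 102 bp from the RpL13 summit (IDR signal 230, 163 in replicate 1 and 78.5 in replicate 2), and eIF1, a start codon selection factor, opposite RpL28 (IDR signal 133, 59.4 in replicate 1 and 70.5 in replicate 2). The RpL13 summit was 1 bp after the RpL13 TSS.

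Many ribosomal protein genes carry small nucleolar RNA (snoRNA) genes, whose products guide ribosomal RNA modification. A gene was counted as a host where a snoRNA gene lay within its span on the same strand. Of 29 such genes 19 were bound (65.5%, 45.7 to 82.1). Of 64 without a snoRNA 39 were bound (60.9%, 47.9 to 72.9), and the intervals overlap widely. RpS5a held 14 snoRNA genes and RpS7 held 7. Among other genes 14 of 55 snoRNA hosts were bound (25.5%, 14.7 to 39.0). Bound members occurred on every arm that holds ribosomal protein genes, with 10 of 19 on 2L, 16 of 21 on 2R, 8 of 14 on 3L, 13 of 23 on 3R, 10 of 15 on X and RpS3A, the only member on chromosome 4. The intervals of these member shares all overlap. Of other genes, 13.9% were bound on 2L, 12.4% on 2R, 14.2% on 3L and 14.7% on 3R. On X 10.4% of other genes were bound, and on chromosome 4 7.59%.

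The TCT initiator was common at ribosomal protein genes and rare elsewhere, and members with and without it were bound at similar shares. It started within 10 bp of a TSS in 48 of 93 ribosomal protein genes (51.6%, 41.0 to 62.1), against 229 of 13945 protein-coding genes (1.64%), chromosome Y left out. Of the members with it 31 of 48 were bound (64.6%, 49.5 to 77.8), and of those without it 27 of 45 (60%, 44.3 to 74.3). Among other genes, 44 of 181 with the element were bound (24.3%, 18.3 to 31.2) and 1795 of 13671 without it (13.1%, 12.6 to 13.7). Bound members with the element had their summit within 50 bp of the TSS in 25 of 31 cases (80.6%, 62.5 to 92.5), with a median position of 5 bp. Bound members without it did so in 14 of 27 (51.9%, 31.9 to 71.3), with a median of -40 bp, and the intervals overlap. Other bound genes with the element kept to the upstream position, with 4 of 44 within 50 bp (9.09%, 2.53 to 21.7) and a median of -136 bp.

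Other promoter elements were searched on both strands from 250 bp before to 50 bp after any TSS, as a description of letters and not of occupied sites. The DRE stood at 28 of 93 ribosomal protein genes (30.1%, 21 to 40.5), against 10.2% of all protein-coding genes. It stood at 15 of the 58 bound members (25.9%, 15.3 to 39.0, against 16.3% of all bound protein-coding genes) and at 13 of the 35 unbound members. The Motif 1 core GGTCACACT, the site of M1BP, stood at 11 (11.8%, 6.05 to 20.2, against 6.78%). It stood at 9 of the 58 bound members (15.5%, 7.35 to 27.4), close to the 12.4% of all bound genes. The BEAF-32 core CGATA, which lies inside the DRE and so counts wherever a DRE does, stood at 68 (73.1%, 62.9 to 81.8, against 53.1%). Among bound members its share was 72.4% (59.1 to 83.3), against 64.4% of all bound genes. The TATA box, TATAAAA or TATATAA, stood at 36 (38.7%, 28.8 to 49.4, against 38.3%), and GAGAG at 19 (20.4%, 12.8 to 30.1, against 36.4%). Among bound members the TATA box stood at 46.6% and GAGAG at 24.1%, against 45.2% and 42.5% of all bound genes.

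The Sp/KLF core, GGGCGGG or GGGCGTG, the kind of site the family of Spps is known to bind, stood at 1 member, RpL36 (1.08%, 0.0272 to 5.85), against 4.16% of all protein-coding genes. RpL36 was unbound. With 200 bp searched to either side of a TSS, the core stood at 3 members (3.23%, 0.670 to 9.14), against 6.66% of all protein-coding genes. It stood at 2 of the 58 bound members (3.45%, 0.420 to 11.9), against 8.17% of all bound genes. Within 100 bp of the 58 member summits there was none (exact 95% upper bound 6.16%), against 1.13% of 1323 summits of all bound genes. The DRE lay within 100 bp of 11 of the 58 summits (19.0%, 9.87 to 31.4, against 6.42%), the Motif 1 core near 6 (10.3%, 3.89 to 21.2, against 3.48%) and CGATA near 33 (56.9%, 43.2 to 69.8, against 35.2%). GAGAG lay near 4 (6.90%, 1.91 to 16.7, against 17.9%) and the TATA box near 8 (13.8%, 6.15 to 25.4, against 31.7%).

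In the IDR list, mitochondrial ribosomal protein genes had a lower share and a more upstream position than the cytoplasmic ones, and translation factor genes lay between. Of 73 mitochondrial ribosomal protein genes (mRpL and mRpS) 17 had a promoter IDR summit (23.3%, 14.2 to 34.6), against 62.4% of the cytoplasmic ones. Their median position was -185 bp, with 1 of 17 within 50 bp (5.88%, 0.149 to 28.7), and 16 of the 17 summits were shared with another gene. With the nearest TSS alone, 6 of the 73 were left. Initiation and elongation factor genes (eIF and eEF) had a summit at 18 of 52 (34.6%, 22.0 to 49.1), with a median position of -53.5 bp and 7 of 18 within 50 bp (38.9%, 17.3 to 64.3), an interval that overlaps that of the ribosomal protein genes. The order of shares did not hold in the full pooled list, where 93.5% of cytoplasmic (86.5 to 97.6) and 89.0% of mitochondrial ribosomal protein genes (79.5 to 95.1) had a promoter summit, with 71.2% of translation factor genes (56.9 to 82.9).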

How the data were processed

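Peak lists from anti-GFP ChIP-seq of Spps-GFP embryos were used, on dm6 per the labels, with sonicated chromatin of a labelled size range of 200 to 800 bp. Which aligner and peak caller were used, and at which IDR threshold, is not given in the sources used here. Each replicate list came from that replicate's alignment and 1 shared control, the pooled list from both alignments, and the IDR list from these 3, per the file headers of the accompanying listings. Peak signal, as deposited by the authors, is in their caller's own units with a scale that differs between lists, and it served only to rank or describe peaks within a list. Every IDR peak has the same deposited −log10 q-value, 3.96, which therefore ranks nothing. Summits were placed by the authors' deposited offset from the peak start. Depth is unknown, so no interval covers read counting.

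Genes, transcripts and snoRNAs came from Ensembl release 115 (annotation 6.54) and sequence from RefSeq assembly release 6, with dm6 coordinates. A gene was bound where a summit lay within 500 bp of any of its TSSs, and the highest-signal summit gave its values. Positions are signed distances from the gene's nearest TSS. Replicate peaks were matched within 200 bp of the IDR summit. For genes without an IDR summit the highest promoter summit of each list was taken without matching. Their values in different lists can therefore belong to different sites. Motifs were exact strings. Shares have exact (Clopper-Pearson) 95% intervals. Values are descriptions of 1 group, with no test and no paired fit. Summit assignment was checked on simulated data with planted summits. The software was NumPy 2.4.6, SciPy 1.17.1 and matplotlib 3.10.9 under Python 3.11.15.

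The members and lists were chosen with earlier results of these data known. Values in both replicates are given for the 12 members with the highest IDR signal, the 4 bound members with the lowest, all paralogue pairs, sta, the stalk genes and the 5 unbound members highest in the pooled list, and sequences for up to 8 of these; some of the genes this rule names are not reported here. Other genes named are neighbours that share a summit, or were named after their values were seen. Alternatives were other windows, TSS sets and assignments, the 1000 highest-signal IDR peaks, each replicate alone and the full lists. Added after the data were seen were the alternatives for the share within 50 bp of a TSS, for divergent genes without a replicate, and the longest transcript for the TCT initiator.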

Additional observations from a re-analysis of the deposited data

How the results depend on the processing

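The count of 58 bound ribosomal protein genes was 58 with a window of 250 bp, 60 with 1000 bp, 56 with the nearest TSS alone and 56 of 79 without second copies and like genes. Which copy of a pair was second was set with its results known, so the 56 of 79 is a description and no check. Among the 1000 highest-signal IDR peaks 17 members, 13 of the large and 4 of the small subunit, had a promoter summit. In the full pooled list 37 of 39 small subunit genes did (94.9%), beside 55% of all protein-coding genes. These lists hold fewer or more peaks than the IDR list. Shares over all protein-coding genes are not given for the 250 bp and 1000 bp windows or the 1000 highest-signal peaks. Those counts, and the 56 of 79, describe the members alone. Leaving out a replicate gave 50 to 59 members, 30 to 37 large and 20 to 22 small subunit genes, a median percentile of 49.8 to 55.8, a median position of -24 (without replicate 1) to -10.5 bp, 62.1% upstream in either case and 55.2% to 67.2% within 50 bp. The share within 50 bp was 53.4% with the TSS of the longest transcript, against 7.78% of other bound genes. It was 81.8% for summits in the window of 1 gene alone, against 11.8% of other bound genes. Both settings were chosen after the data were seen. Within 100 bp of the summit in place of the promoter window, shares were 19.0% for the DRE, 56.9% for CGATA, 0% for the Sp/KLF core, 6.90% for GAGAG and 13.8% for the TATA box. Within 200 bp to either side of a TSS, GAGAG stood at 32.3% (43.8% of all protein-coding genes) and the Sp/KLF core at 3.23% (6.66%). The TCT initiator stood at 37.6% with the longest transcript alone, against 1.21% of all protein-coding genes. The cause of these shifts was not tested, other than that the windows and TSS sets differ in size.

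No paired analysis was possible because both replicates belong to 1 group and no value comes from a test. With 2 replicates and no read counts, the spread of a single gene's signal cannot be estimated, and genes with near-identical copies depend on read handling that is not given in the sources used here. A gene missing from a list of 30000 peaks is not shown to be unbound.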

Other observations

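Some genes of ribosome building and growth control were bound as well. Of 32 genes of ribosome biogenesis and growth control 9 had a promoter IDR summit (28.1%, exact 95% interval 13.7 to 46.7), beside 13.6% of all protein-coding genes. In the full pooled list 26 had a promoter summit (81.25%, 63.6 to 92.8), beside 55% of all protein-coding genes. When an IDR summit counted only for the gene with the nearest TSS, 4 of the 32 were left (12.5%, 3.51 to 29.0), beside 9.77% of all protein-coding genes. The highest was Ns2, a nucleostemin family GTPase gene, with an IDR signal of 499 and ranks of 126 in replicate 1 and 194 in replicate 2, its summit at -196 bp from a TSS and shared with POSH. The gene eIF6, whose protein keeps new large subunits from joining early, had an IDR signal of 331, with 207 in replicate 1 and 124 in replicate 2, at -104 bp. NHP2, for a protein of box H/ACA particles, had an IDR signal of 203. The lowest, Surf6, had 104 and ranked 2190 in replicate 1 and 22185 in replicate 2. Rack1, whose protein sits on the small subunit although its name does not start with RpS, had an IDR signal of 129, with 75.8 in replicate 1 and 50.8 in replicate 2. The Rack1 summit lay at -10 bp, the closest to a TSS of the 9, the others standing between -71 and -200 bp. Myc, a growth regulator, had no IDR summit at a TSS and a pooled signal of 97.3 at rank 3422.

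Of the genes for factors known at ribosomal protein promoters, M1BP had an IDR signal of 251 at -110 bp, with 151 in replicate 1 and 99.0 in replicate 2, and Dref shared the RpL13 summit. Trf2, for a TBP-related factor, had a pooled peak at rank 5976 and no IDR summit at a TSS.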
